A study of Danio rerio with 2 samples.

Results

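The genes described here encode RNA polymerase I (Pol I), the enzyme that transcribes the ribosomal DNA (rDNA), and proteins that help it to start. Members were the array's gene probes whose gene name, or symbol in the annotation text, was polr1a, polr1b, polr1c, polr1d, polr1e, rrn3, ubtf, tcof1 or nolc1. Of these 9 genes, polr1a and polr1c were found, with 1 probe each among 21495 gene probes for 17984 gene or transcript names. The genes polr1b and polr1d had 1 probe each that carries another name in the files (zgc:66298 and LOC445412) and that a reference table ties to them by accession. They are described beside the members and enter no count of members. For polr1e, rrn3, ubtf, tcof1 and nolc1 no probe was found by name or through the reference table. A further 14 probes are tied to Pol I, to its factors or to ribosomal RNA (rRNA) only by their annotation text, and are given apart.

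Pol I works in the nucleolus, where it copies the repeated rRNA genes into a long precursor that is cut into the RNAs of both ribosomal subunits. The large subunits polr1a and polr1b form the active centre, whereas polr1c and polr1d form an assembly platform that RNA polymerase III (Pol III) shares. In mammals Rrn3 brings the enzyme to promoters marked by UBF and the selectivity factor SL1, and treacle (tcof1) acts with UBF at the rRNA genes. Mutations of the human genes for treacle, POLR1C and POLR1D cause Treacher Collins syndrome, in which facial structures from neural crest cells form poorly.

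The mutants were homozygous gnl2 (bw41c) embryos from heterozygous parents, and they were set against TL wild types. The gnl2 gene encodes a GTPase of the nucleolus that helps to build large ribosomal subunits. All were whole zebrafish embryos of 22 hours post-fertilization, staged by morphology, with total RNA from 40 embryos in each extract. Mutant and wild-type RNA were labelled with different dyes and hybridised together on 2 arrays, with mutant RNA in Cy5 on array 1 and in Cy3 on array 2. Whether wild types and mutants were siblings is not stated, and some of the embryos collected went to genotyping. The array titles carry the same final number, so the arrays may share extracts, and p-values then measure only technical spread. Array, dye orientation and replicate cannot be told apart, and in whole embryos fewer cells of a type and less RNA per cell cannot be told apart either.

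The median signal was 482 in red and 243 in green on array 1, against 305 and 204 on array 2. After outlier flags and dim probes were left out, 19284 probes for 16295 genes were tested, and the number of arrays limits the precision. Ratios are log2 of mutant over wild type with the sign turned on array 2, and levels are log2 intensities after normalization. Over all probes the ratios of the arrays correlated negatively (Pearson r = -0.149, Spearman rho = -0.197, across probes, which are not independent replicates). The mutated gene gnl2 had levels of 11.08 and 9.07 in mutants, against 12.07 and 11.35 in wild types, a mean ratio of -1.63 ± 0.91 (SD, n = 2). This was the lowest mean ratio of all 19284 probes tested, and the lower signal followed the mutant label in both dye orientations. Where the probe lies relative to the mutation is not known here, and the genotype was not tested otherwise. Of 43 marker genes for 9 tissues, 34 had a probe, and 33 of these were well above background in both genotypes on both arrays. In single channels 92.7% to 96.4% of all gene probes were well above background, so this count does not show that the tissues were present.

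Of the 2 members, polr1c was higher in mutants on both arrays and polr1a went in opposite directions. By limma, no member and 0 of all 19284 probes (0.0%) had an adjusted p under 0.05. The members were also not among the 632 probes (3.28%) with an unadjusted p under 0.05, of which the higher ones made up 2.03% and the lower ones 1.24% of all probes. The median ratio of the 2 members was 0.36, with 0.27 on array 1 and 0.44 on array 2, beside a median of 0.002 over all genes tested. With 2 members it is only the midpoint of 0.02 for polr1a and 0.69 for polr1c. On array 1 it lies between -0.57 and 1.12, and on array 2 between 0.62 and 0.27, so it describes neither gene. Over all probes 21.4% were higher on both arrays, 20.0% lower on both and 58.6% split, beside which 1 higher and 1 split member make no result about the members.

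The assembly subunit gene polr1c had levels of 10.36 and 9.93 in mutants, against 9.24 and 9.66 in wild types. Both mutant levels thus lay above both wild-type levels, which was so for 5.18% of all probes, and the reverse for 4.5%. Its ratios of 1.12 and 0.27 averaged 0.69 ± 0.60 (SD, n = 2), which is 1.62-fold. The unadjusted p in limma was 0.0533 and the adjusted p 1.00, so the difference did not pass the test. An absolute mean ratio at least as large was found for 109 probes (0.565%), polr1c among them, but the polr1c mean came mostly from array 1. Agilent's error model for single arrays, which does not see the spread between arrays, gave a small p of 2.79e-10 on array 1 and a larger p of 0.0727 on array 2.

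The gene polr1a, for the largest Pol I subunit, had levels of 8.70 and 10.26 in mutants, against 9.27 and 9.65 in wild types. The mutant levels thus lay on either side of the wild-type levels, with the lowest of the 4 values on array 1 and the highest on array 2. Its ratio was -0.57 on array 1 and 0.62 on array 2, a mean of 0.02 ± 0.84 (SD, n = 2), with an adjusted p of 1.00 in limma. On each array alone Agilent's error model gave a small p, 0.000435 on array 1 and 0.000101 on array 2, with opposite signs. Opposite signs at p under 0.01 on both arrays were found for 289 probes (1.5%), against 98 probes (0.508%) higher and 35 (0.181%) lower on both. Taken as red over green, the polr1a ratio was below 0 on both arrays, with a mean of -0.59, a size reached or passed by 322 probes (1.67%).

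The probe that the reference table gives to polr1d, the partner of polr1c in the assembly platform, had levels of 10.44 and 10.09 in mutants. Its wild-type levels were 9.89 and 9.86, so both mutant levels lay above both wild-type levels, as for 5.18% of all probes. The ratios were 0.55 and 0.23, a mean of 0.39 ± 0.23 (SD, n = 2) or 1.31-fold, with an unadjusted p of 0.0380 and an adjusted p of 1.00 in limma. Agilent's error model again gave a smaller p on array 1, of 0.000933, than on array 2, of 0.143. Of all probes, 2.03% were higher in mutants at an unadjusted p under 0.05 in limma. Like polr1c, polr1d was thus higher in mutants on both arrays, as were 21.4% of all probes, with the larger ratio on array 1.

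The probe given to polr1b, the other large subunit of the active centre, had levels of 9.95 and 9.89 in mutants and of 10.04 and 9.63 in wild types. These levels overlapped, and the ratios of -0.08 and 0.26 had opposite signs, with a mean of 0.09 ± 0.24 (SD, n = 2) and an adjusted p of 1.00 in limma. With polr1b and polr1d included, the median over the 4 subunit genes was 0.24, with 0.23 and 0.26 on the arrays. A further Pol I subunit gene outside the rule, polr1f, is not in this median and was split, at -0.30 and 0.16. The subunits polr1c and polr1d, shared with Pol III alone, were higher on both arrays and both large subunits were split. That grouping was seen after the values and was not tested. The tested subunits shared with RNA polymerase II as well, polr2f and polr2eb, were split at the brightest probe of each.

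**Figure D1:**
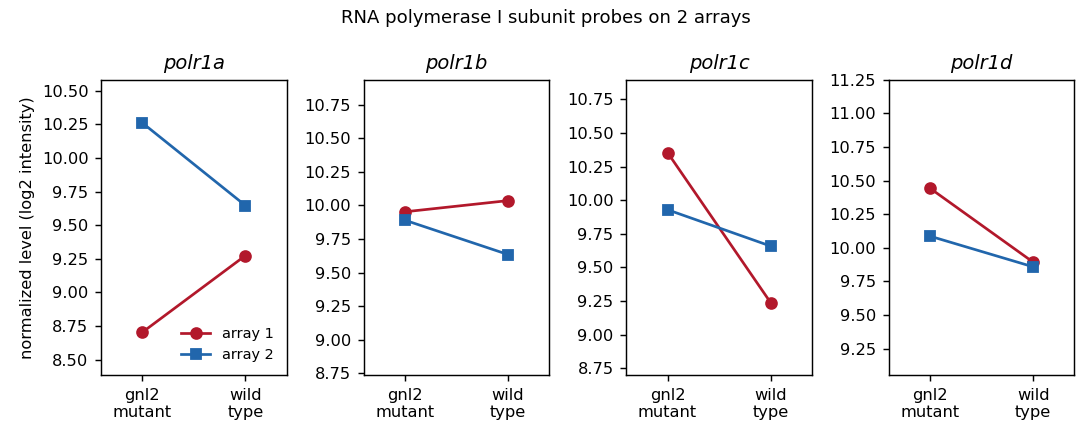
Normalized levels (log2 intensity) of the probes for polr1a, polr1b, polr1c and polr1d, in gnl2 mutants at the left and wild types at the right of each panel, with a line joining the channels of 1 array. The lines of polr1c and polr1d run down from mutant to wild type on both arrays, while those of polr1a and polr1b run in opposite directions. Vertical axes have equal spans but different positions, and levels are not comparable between probes.

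Other probes whose annotation text points to polr1a or polr1b were also split between the arrays. A probe described as a zebrafish Polr1a fragment, which carries the same transcript cluster as the named polr1a probe, had ratios of -0.34 and 0.18. A probe described by likeness to human POLR1A had -0.02 and 0.38. All 3 probes tied to polr1a were thus lower on array 1 and higher on array 2, against 27.5% of all probes. Their means ran from -0.08 to 0.18, but 2 of them share a transcript, and the split was not tested. Probes described by likeness to the rat and mouse homologues of Polr1b had 0.18 and -0.10, and 0.10 and -0.12, opposite in sign to the -0.08 and 0.26 of the polr1b probe on each array. The rat-like probe and the polr1b probe are assigned to 1 transcript cluster, and their signs differed on each array. The rat-like and mouse-like probes were dim, with 35.3% and 20.5% of gene probes dimmer. Agilent's error model gave p of 0.397 and 0.553 for the rat-like probe on arrays 1 and 2. It gave 0.964 and 0.377 for the mouse-like probe, and 0.572 and 0.0979 for the polr1b probe. These signs were thus not set apart from noise within an array.

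For initiation and elongation factors most probes were tied by description only, and the named genes ubtfl and taf1b are given further on. The probe for Pol I associated factor PAF53, a description that fits polr1e, had levels of 6.72 and 6.57 in mutants and of 7.01 and 6.65 in wild types. It was lower on both arrays, as were 20.0% of all probes, at -0.29 and -0.08. The mean was -0.18 ± 0.15 (SD, n = 2) with an unadjusted p of 0.153 in limma. The probe was dim, with 17.4% of gene probes dimmer. Agilent's error model gave p of 0.424 on array 1 and 0.812 on array 2. Of 2 probes resembling human UBF, 1 had ratios of -0.70 and 0.39 and the other -0.06 and 0.02, both of opposite sign on the arrays. A probe for a subunit of the selectivity factor SL1 had -0.12 and 0.08, and 1 for transcription termination factor 1, which stops Pol I at the end of the rRNA genes, had -0.08 and -0.01. A nucleolar phosphoprotein probe, the description nearest to nolc1, a snoRNP chaperone, had -0.11 and 0.22. The probe described as Znrd1, a small Pol I subunit with a role in RNA cleavage, was higher on both arrays at 0.10 and 0.22, a mean of 0.16 ± 0.09 (SD, n = 2) with an unadjusted p of 0.156 in limma.

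Of the 11 protein probes tied by description, 8 were split, 1 was higher and 2 lower on both arrays. Among the 11, 6 were lower on array 1 and higher on array 2, a larger share than the 27.5% of all probes. This split was looked at after the values were seen and was not tested. The means of the 11 ran from -0.18 to 0.18 with a median of -0.02. Taken with the 4 subunit probes above, 3 of 15 had a ratio above 0 on each array, 2 had one below 0 and 10 were split, with a median of 0.02. The shares higher, lower and split lie near the 21.4%, 20.0% and 58.6% over all probes. Of the 15, 8 were lower on array 1 and higher on array 2, again a larger share than 27.5%, and this was not tested.

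The product of Pol I itself was touched by 3 probes described as rRNA of other species. The labelling kit named in the labels primes from poly(A) tails, which rRNA lacks, so signal at these probes does not measure how much rRNA the embryos held. A probe resembling Xenopus 28S rRNA had levels of 12.98 and 16.19 in mutants and of 12.43 and 15.65 in wild types, with the wild-type signal saturated on array 2. The ratio was 0.55 on array 1, the only array on which both signals were below saturation. The array 2 ratio of 0.54 rests on the saturated signal, so no mean fold or p is given. The other probe for Xenopus 28S rRNA had ratios of 0.02 and 0.004, and a probe resembling rat rRNA had -0.02 and -0.13. The Xenopus-like probes thus did not share the size of their ratios on array 1.

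**Figure D2:**
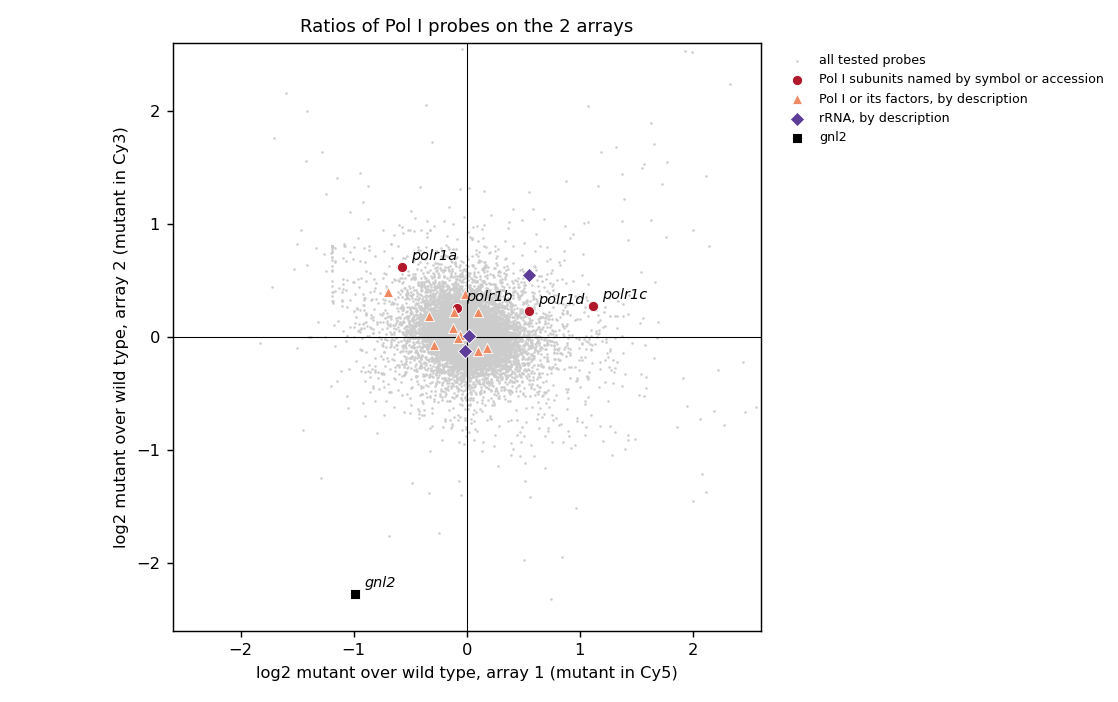
Log2 mutant over wild-type ratio of each probe on array 1 (horizontal) against array 2 (vertical). Grey points are all tested probes, except 9 outside the axes, and coloured symbols are the Pol I, rRNA and gnl2 probes. The symbols for polr1c and polr1d lie in the upper right, polr1a and 6 of the 11 protein probes tied by description in the upper left, and gnl2 at -0.99 and -2.27.

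Ratios were set beside those of 87 related genes in 7 lists, of which 39 were tested. Among these, 6 had an unadjusted p under 0.05 in limma, beside 3.19% of all genes tested, and 0 an adjusted p under 0.05. Of all 16295 genes tested, 3454 were higher on both arrays, 3299 lower on both and 9542 split. The directions within the lists were not tested against these numbers. Of the further Pol I subunits in the lists, only polr1f was tested by name. It had -0.30 and 0.16, a mean of -0.07 ± 0.33 (SD, n = 2). The Znrd1 probe, tied to a further subunit by description only, was higher on both arrays, at 0.10 and 0.22. Of the subunits shared by all 3 nuclear polymerases, polr2f had -0.12 ± 0.23 and polr2eb -0.004 ± 0.08 (SD, n = 2 each). Both were split between the arrays at their brightest probe. Other polr2eb probes had -0.03 and -0.10, lower on both arrays, and 0.05 and -0.06, split. The genotype levels of polr1f, polr2f and polr2eb overlapped.

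The list of factors for rDNA initiation, termination and chromatin held 21 genes, of which 7 were tested. It had a median of 0.004, with 2 genes higher on both arrays, 1 lower and 4 split. The nucleolar chaperone gene npm1a (nucleophosmin) had levels of 14.88 and 14.53 in mutants and of 14.65 and 14.06 in wild types. Its ratios of 0.24 and 0.47 gave a mean of 0.35 ± 0.17 (SD, n = 2) with an unadjusted p of 0.0337 in limma, and all 4 of its probes were higher on both arrays, at 0.25 to 0.38. The mutant level exceeded the wild-type level on each array, but the levels overlapped across arrays. Also higher on both arrays was mybbp1a, a nucleolar protein that restrains rRNA synthesis in mammals, at 0.01 and 0.50. The acetyltransferase gene kat5b was lower on both by a small amount, at -0.03 and -0.02. The named UBF relative on the array, ubtfl, had -0.15 and 0.14, split like the UBF probes above. The SL1 subunit gene taf1b was also split, at -0.07 and 0.18.

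Pol III makes 5S rRNA and transfer RNAs and shares polr1c and polr1d with Pol I. Of 12 Pol III subunit genes 8 were tested, with 5 higher on both arrays, 1 lower and 2 split, and a median of 0.10 (0.07 and 0.14 on the arrays). Over all 16295 genes tested, 3454 were higher on both arrays. Of the 5, polr3e had 0.07 and 0.003. Another, polr3k, had 0.06 and 0.13 at its brightest probe but -0.02 and -0.09 at its other probe. The gene polr3d had levels of 10.35 and 10.64 in mutants, above its 10.17 and 10.06 in wild types, and ratios of 0.18 and 0.58 (mean 0.38 ± 0.28, SD, n = 2, with an unadjusted p of 0.0558 in limma). The paralogs polr3gla and polr3glb went in opposite directions. The gene polr3gla had 8.89 and 8.82 in mutants against 8.59 and 8.41 in wild types, a mean ratio of 0.36 ± 0.08 (SD, n = 2), and 0.19 at its other probe. The gene polr3glb had 10.68 and 10.40 in mutants against 11.02 and 10.68 in wild types, a mean ratio of -0.31 ± 0.05 (SD, n = 2), and -0.30 at its other probe. Their unadjusted p in limma were 0.0196 and 0.0267, with adjusted p of 1.00 for both.

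Among 9 tested Pol III initiation factors the median was 0.03, with 3 higher on both arrays, 2 lower and 4 split. The gene gtf3aa encodes TFIIIA, the factor that binds the 5S rRNA gene. It had levels of 9.41 and 9.61 in mutants, against 8.84 and 9.06 in wild types. Its ratios of 0.57 and 0.55 lay close together, with a mean of 0.56 ± 0.01 (SD, n = 2), 1.47-fold (unadjusted p = 0.00407 and adjusted p = 1.00 in limma). The gene brf1b, for a subunit of TFIIIB, was lower on both arrays at -0.36 and -0.05.

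At their brightest probes, Pol II subunits had a median ratio of -0.04 over 4 tested genes, 2 lower on both arrays and 2 split. The lowest among those of 1 direction was polr2i at -0.19 and -0.09, with its 4 probes between -0.18 and -0.004. The highest was polr2d at -0.05 and -0.03, but its other probe was split, at 0.01 and -0.01. The split gene polr2c had -0.06 and 0.11 at its brightest probe and 0.62 and -0.09 at its other probe.

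The Myc and TOR regulators, which adjust rRNA synthesis to growth, had a median of 0.12 over 8 tested genes. Of these, 3 had higher values on both arrays, 1 had lower values and 4 were split. The Myc gene mycb had levels of 11.72 and 11.67 in mutants, above its 11.41 and 11.15 in wild types, and a mean ratio of 0.41 ± 0.14 (SD, n = 2, with an unadjusted p of 0.0187 in limma), with 0.42 at its other probe. Its paralog myca had 10.73 and 10.60 in mutants against 10.41 and 10.35 in wild types, a mean ratio of 0.29 ± 0.05 (SD, n = 2, with an unadjusted p of 0.0336 in limma). The TOR-activating GTPase gene rheb was lower on both arrays, at -0.54 and -0.10. Adjusted p were 1.00 for all 3 genes.

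**Figure D3:**
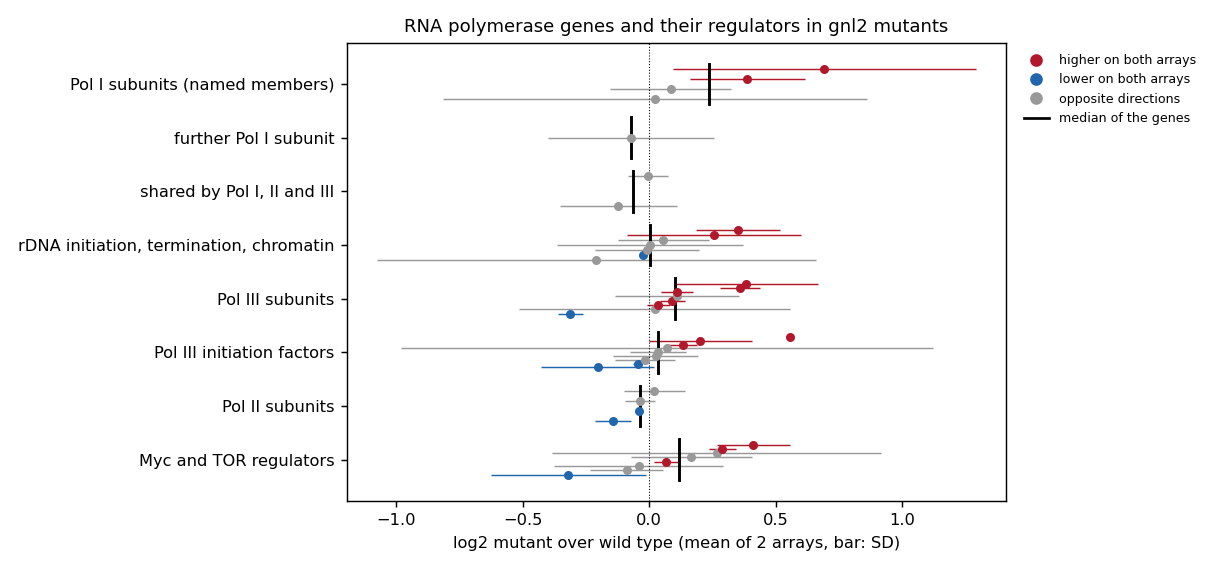
Mean log2 mutant over wild-type ratio of each tested gene (points, SD of 2 arrays as bars), by list, with the list median as a black line. Medians lie at 0.24 for the 4 Pol I subunits tied by name or accession, 0.12 for Myc and TOR regulators and 0.10 for Pol III subunits. They lie between -0.07 and 0.03 for the other lists. The further Pol I subunit polr1f, at -0.07, has a row of its own and is not in the median of 0.24. The top row, labelled as named members, holds the members polr1a and polr1c and also polr1b and polr1d, which are not members by the rule. Red points were higher and blue points lower on both arrays, and grey points had opposite directions.

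Tissue markers also differed in their mean ratios. The median was 0.41 over 5 skeletal muscle markers, 0.29 over 3 of the hatching gland, 0.14 over 2 erythroid, 0.10 over 2 of the notochord, 0.09 over 3 endothelial and 0.06 over 4 yolk and endoderm markers. It was -0.03 over 4 neural crest, -0.13 over 5 nervous system and -0.29 over 5 epidermal markers. Of the muscle markers 3 were higher on both arrays and 2 split, and of the nervous system markers 4 were lower on both and 1 higher. Of all 16295 genes tested, 3454 were higher on both arrays, 3299 lower on both and 9542 split, and the marker counts were not tested against these. No marker had an adjusted p under 0.05 in limma. The largest shifts of 1 direction in muscle and nervous system markers were those of acta1b, a muscle actin gene, at 0.20 and 0.74, and fabp7a, a fatty acid binding protein gene of neural progenitors, at -0.79 and -0.85. The epidermal median was -0.59 on array 1 and 0.16 on array 2, with 3 of 5 markers split. The keratin genes krt4, krt5 and cyt1 were saturated in at least 1 channel. Lower on both arrays were icn, which was unsaturated, at -0.50 and -0.54, and cyt1, at -0.56 and -0.02. Hatching gland markers disagreed, with mean ratios of 0.69 for he1.2, 0.29 for cd63 and -0.58 for ctslb. These are values of the brightest probe, and the 3 probes of ctslb ran from -0.58 to -0.01. Those of the muscle marker myod1 ran from 0.09 to 0.44, while those of fabp7a lay closer together, from -0.82 to -0.75. Both ctslb and the yolk and endoderm marker apoeb were saturated in 1 mutant channel. The part of these shifts in the ratios of polr1c, polr1d and the Pol III and Myc genes was not tested.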

How the data were processed

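The members and gene lists were chosen with earlier results of these data known. Feature Extraction A.7.5.1 of Agilent gave the deposited intensity values, which are mean signals of spots and medians of their surroundings, per the file headers. The authors' log10 ratio is red over green, and each deposited p-value comes from an error model within a single array, per the file headers. The processed intensity had spatial detrending and LOWESS smoothing of 0.25, without local background subtraction, per the file headers. The authors' value table differed from the log10 ratio by at most 0.00498 and 0.00499 on the arrays. Its column medians were 0, and its sign is not turned for the dye swap.

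Under R 4.3.3, limma 3.58.1 corrected signals by normexp (offset 50) and normalized them by loess (span 0.3) in which controls and outliers had a weight of 0. Flagged outliers (749 probes) were left out. A further 1462 were not well above background in either genotype on both arrays. Levels came from Aquantile scaling. The mean log2 ratio was tested by lmFit and eBayes, 2-sided, with 3.49 degrees of freedom per probe. Benjamini-Hochberg adjustment over 19284 probes was used at 0.05. A run on simulated data checked only that the script recovered mean ratios, not its p-values or calls. The GRCz12tu gene table, used only for names, gave names to 7342 of 21495 probes through an accession, to 593 through a symbol and to 2351 through a synonym, and 11209 kept the files' name. A gene with several probes is represented by its brightest. In each pathway list, the genes with the highest and lowest ratio of 1 direction and those with an unadjusted p under 0.05 were named, and ubtfl, taf1b and the markers named were added after their values were seen. The related genes smarca5, mycn and polr2g carried outlier flags and were not tested. Alternatives were processed signals, offset 0, median centring, no dim filter, outliers kept, saturated probes left out, the mean over probes, the deposited table, single arrays and Agilent's error model.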

Additional observations from a re-analysis of the deposited data

How the results depend on the processing

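The mean ratio of polr1c lay between 0.69 and 0.74 under 7 alternatives of background, normalization, filter and source of values, that of polr1d between 0.39 and 0.43, that of polr1b between 0.09 and 0.13 and that of polr1a between 0.01 and 0.03, with adjusted p of 1.00. The alternatives without the dim filter, with outliers kept and without saturated probes could not move these ratios. The 4 probes were unflagged, well above background and unsaturated. Processed signals and the deposited table gave nearly the same value, 0.7444 and 0.7446 for polr1c. The narrow ranges are thus partly fixed in advance. Leaving out either array gave 0.27 to 1.12 for polr1c and 0.23 to 0.55 for polr1d. It turned the sign of polr1a (-0.57 to 0.62) and polr1b (-0.083 to 0.26), which were negative on array 1 alone. The member median lay between 0.36 and 0.38 under 8 alternatives and at 0.27 to 0.44 on single arrays, and 1 member had a shared direction under all 8. The same limit holds here, and the mean over probes changes nothing where each member has 1 probe. Under 6 alternatives limma again gave 0 probes with an adjusted p under 0.05, and 501 to 680 by unadjusted p. Median centring instead of loess gave 38. Agilent's error model, which leaves out the spread between arrays, was read at another threshold, an unadjusted p under 0.01 in 1 direction on both arrays, and gave 133. No member was called under either. The fit reported is itself paired, since each ratio sets mutant against wild type on 1 array, and no further block could be added. With 2 arrays, 1 residual degree of freedom per probe limits every test. Saturation touched none of the 4 subunit probes.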
